A study of Homo sapiens with 15 samples.

Results

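The 9 genes described here encode 6 Eph receptors (EPHA2, EPHA4, EPHB2, EPHB3, EPHB4 and EPHB6), 2 ephrins (EFNA1 and EFNB2) and the receptor tyrosine kinase RET. They are 9 of the 61552 genes counted in each of 15 RNA-seq libraries, and were chosen by name with their levels and fold changes in these libraries already known. Their differences between groups are therefore given as a description: each is marked as past or not past the threshold of the fit over all genes, with no p-value. All 15 libraries came from H1299, an established human lung carcinoma line that lacks functional endogenous p53, a tumour suppressor and transcription factor. In 2023, 3 libraries were collected from cells with a control vector (Ctrl) and 3 from cells overexpressing wild-type p53 (WT). In 2022, 3 libraries each were collected from cells overexpressing p53 (p53) or either of a pair of constructs labelled LLPSEp53_1 and LLPSEp53_2, in a study of how the phase separation of p53 bears on its activity. The 15 libraries include no control vector library of 2022, so levels in 2022 have no baseline without p53 from that year. How the constructs were delivered, how long they were expressed, whether cells were clonal and what distinguishes the LLPSEp53 constructs is not stated in the labels.

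Eph receptors form the largest family of receptor tyrosine kinases, and their ligands, the ephrins, are themselves held at the cell surface, so that signals pass where cells touch. A-type ephrins are anchored by a lipid and B-type ephrins span the membrane and can signal back into their own cell, and contact between the families steers adhesion, repulsion and tissue boundaries. RET answers ligands of the GDNF family, which it meets only together with a GFRA co-receptor, and it is a driver oncogene in a share of lung and thyroid cancers.

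Levels are given in CPM, the reads of a gene scaled by the library's total and TMM factor. The labels place p53 replicate 2 in a batch of its own. Because of the batch label, a term for that library was fitted, so that p53 is represented by replicates 1 and 3 in every difference below. Totals ran from 13535397 to 19228748 counts per library. The epithelial keratins KRT8 and KRT18 and the mesenchymal filament VIM lay between 699.8 and 1972 CPM in all libraries. The lung markers NAPSA and SFTPC stayed under 1 CPM and NKX2-1 between 0.922 and 6.995. Of 8 markers of leukocytes, endothelium, fibroblasts and liver, PTPRC had no count in any library, and their summed level was 2.34 to 7.01 CPM. COL3A1 alone among them passed the threshold, being lower in LLPSEp53_2 (0.189 ± 0.00472 CPM, n = 3) than in p53 (1.498 ± 1.21 CPM, n = 2). Any part of these markers in the results was not tested.

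In control cells, the receptors were dominated by EPHA2 and EPHB4. EPHA2 (ENSG00000142627, chr1:16124337-16156087, - strand; all gene positions from GENCODE 29 on GRCh38), a receptor often raised in carcinomas, stood at 126 ± 13.3 CPM per kb of exon (SD, n = 3). EPHB4 (ENSG00000196411, chr7:100802565-100827521, - strand), the receptor that pairs with EFNB2 in forming arteries and veins, stood at 23.6 ± 1.95 CPM per kb. The remaining levels in Ctrl, all in CPM per kb, fell in the order EFNA1 (2.74 ± 0.385), EPHB2 (2.11 ± 0.314), EFNB2 (1.30 ± 0.330), EPHB3 (0.639 ± 0.232), RET (0.281 ± 0.0899) and EPHB6 (0.229 ± 0.0582). In that order, the Ctrl libraries overlapped between EFNA1 and EPHB2 and between RET and EPHB6, and not between the other neighbours. EPHA4 (ENSG00000116106, chr2:221418027-221574202, - strand), which binds both ephrin classes, was not detected in Ctrl and had at most 5 counts in any library. It did not pass the filter and was not tested. A count of 0 allows up to 3 counts, or 0.163 to 0.22 CPM over the libraries, a limit that covers counting error only.

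**Figure D1:**
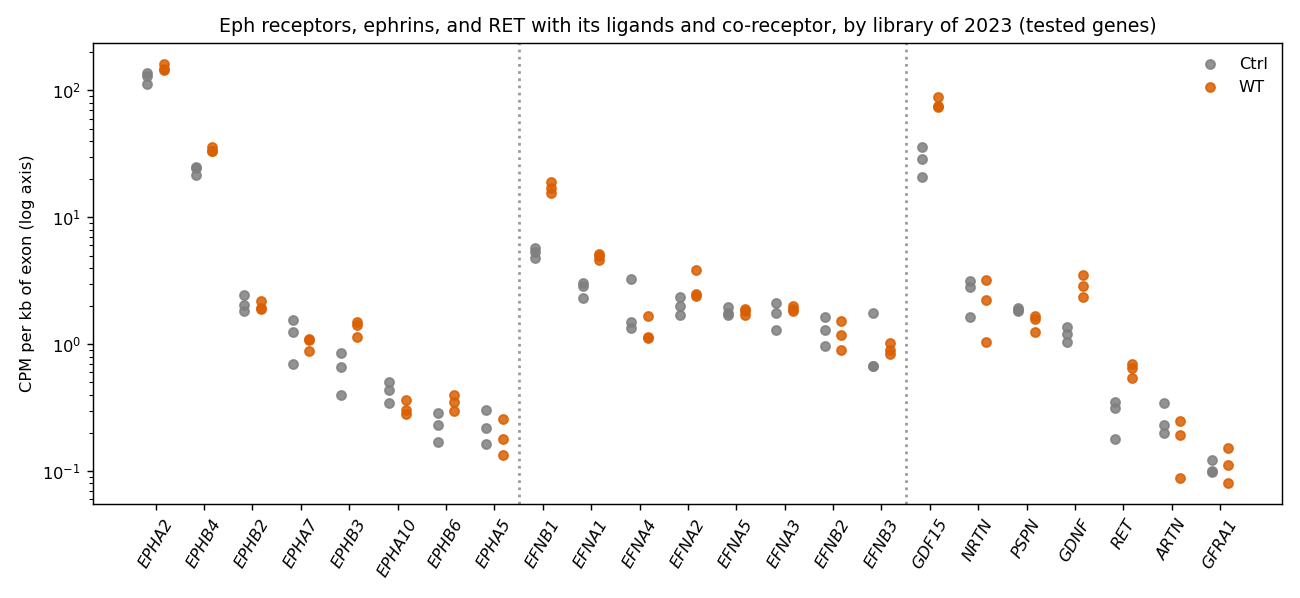
Level of each tested Eph receptor (left), ephrin (middle) and RET with its ligands and co-receptor (right) in the 2023 libraries, in CPM per kb of exon on a log axis; each point is 1 library, grey for Ctrl and orange for WT. EPHA2 and EPHB4 stand above all other Eph receptors in every library, and EFNB1 above all other ephrins.

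EPHA2 made up 81.5% ± 0.42 of the summed Eph receptor level per kb in Ctrl and 79.3% ± 0.254 in WT (SD, n = 3 each). EPHB4 made up 15.3% ± 0.419 and 17.9% ± 0.237. EFNB1, a B-type ephrin outside the 9 genes, made up 29.4% ± 0.483 of the summed ephrin level in Ctrl and 53.5% ± 2.64 in WT, while EFNA1 made up 15.4% ± 2.86 and 15.2% ± 1.51.

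The first comparison asked which genes respond to wild-type p53. Of the 9 genes, 8 passed the filter on low counts, and 4 of these, EPHB3, EPHB4, EFNA1 and RET, rose past the threshold in WT (quasi-likelihood test of edgeR, p-values adjusted over 16156 genes by Benjamini-Hochberg, threshold 0.05). Over all tested genes, 3.24% rose past it and 4.12% passed in either direction. None of the 8 fell past it, as 0.873% of all tested genes did.

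RET (ENSG00000165731, chr10:43077027-43130351, + strand) had 1.24, 2.42 and 2.17 CPM in the Ctrl libraries and 3.73, 4.81 and 4.47 CPM in the WT libraries. All 3 WT libraries lay above all 3 Ctrl libraries, and the fitted log2 change was 1.15 ± 0.28 (SE), or 2.22-fold. EPHB3 (ENSG00000182580, chr3:184561784-184582409, + strand), a receptor for B-type ephrins known for positioning cells along the intestinal crypt, had 3.90, 1.80 and 2.98 CPM in Ctrl and 6.76, 6.37 and 5.18 CPM in WT. Here too the groups did not overlap, and the log2 change was 1.08 ± 0.26, or 2.11-fold. Both genes were low and both calls depended on single libraries. RET did not pass without WT replicate 2 or 3 or Ctrl replicate 1 or 3, and EPHB3 did not pass without WT replicate 1 or Ctrl replicate 3.

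EFNA1 (ENSG00000169242, chr1:155127460-155134857, + strand), an A-type ephrin first found as a gene induced by tumour necrosis factor and a ligand of EPHA2, had 7.33, 7.71 and 5.86 CPM in Ctrl and 12.6, 11.7 and 12.9 CPM in WT. The lowest WT library lay above the highest Ctrl library, with a log2 change of 0.83 ± 0.17, or 1.78-fold. EPHB4 had 158, 138 and 160.3 CPM in Ctrl and 232, 216 and 214 CPM in WT. Its groups did not overlap either, at a smaller log2 change of 0.54 ± 0.11, or 1.45-fold. These calls for EFNA1 and EPHB4 were kept under each of the alternative settings and with each library left out in turn. EPHB4 shares exon sequence with SLC12A9 on the opposite strand, and whether reads were counted by strand is not stated; SLC12A9 stood at 34.8 ± 0.64 CPM in Ctrl and 30.4 ± 3.43 in WT (SD, n = 3 each).

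EPHA2 had 537, 465 and 573 CPM in Ctrl and 676, 613 and 605 CPM in WT. All WT libraries were again higher, but the log2 change of 0.27 ± 0.12 did not pass the threshold; with offsets for GC content, a setting added after the data were seen, it was 0.45 and passed. The longest annotated transcript of EPHA2 is 60.3% G and C, against a median of 47.9% over expressed genes. Those of the other tested genes ran from 50.0% (EFNB2) to 62.2% (EPHB3), so high GC content is not particular to EPHA2. EPHB6 (ENSG00000106123, chr7:142855061-142871094, + strand), a receptor whose kinase domain is inactive, had 1.24, 0.900 and 1.52 CPM in Ctrl and 2.12, 1.86 and 1.59 CPM in WT. Its libraries did not overlap either, yet at this depth its log2 change of 0.60 ± 0.34 did not pass. In all, 6 of the 8 tested genes had groups that did not overlap, against 22.4% of all tested genes.

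EPHB2 and EFNB2 showed no such separation. EPHB2 (ENSG00000133216, chr1:22710839-22921500, + strand), a close relative of EPHB3, had 25.3, 23.1 and 30.7 CPM in Ctrl and 27.6, 23.6 and 24.3 CPM in WT, with a log2 change of -0.07 ± 0.13. EFNB2 (ENSG00000125266, chr13:106489731-106535662, - strand), the arterial ephrin that binds EPHB4, had 8.16, 4.84 and 6.51 CPM in Ctrl and 4.53, 5.89 and 7.65 CPM in WT, with a log2 change of -0.11 ± 0.23. Both sets of libraries overlapped broadly, and the sign of either change turned when single libraries were left out.

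**Figure D2:**
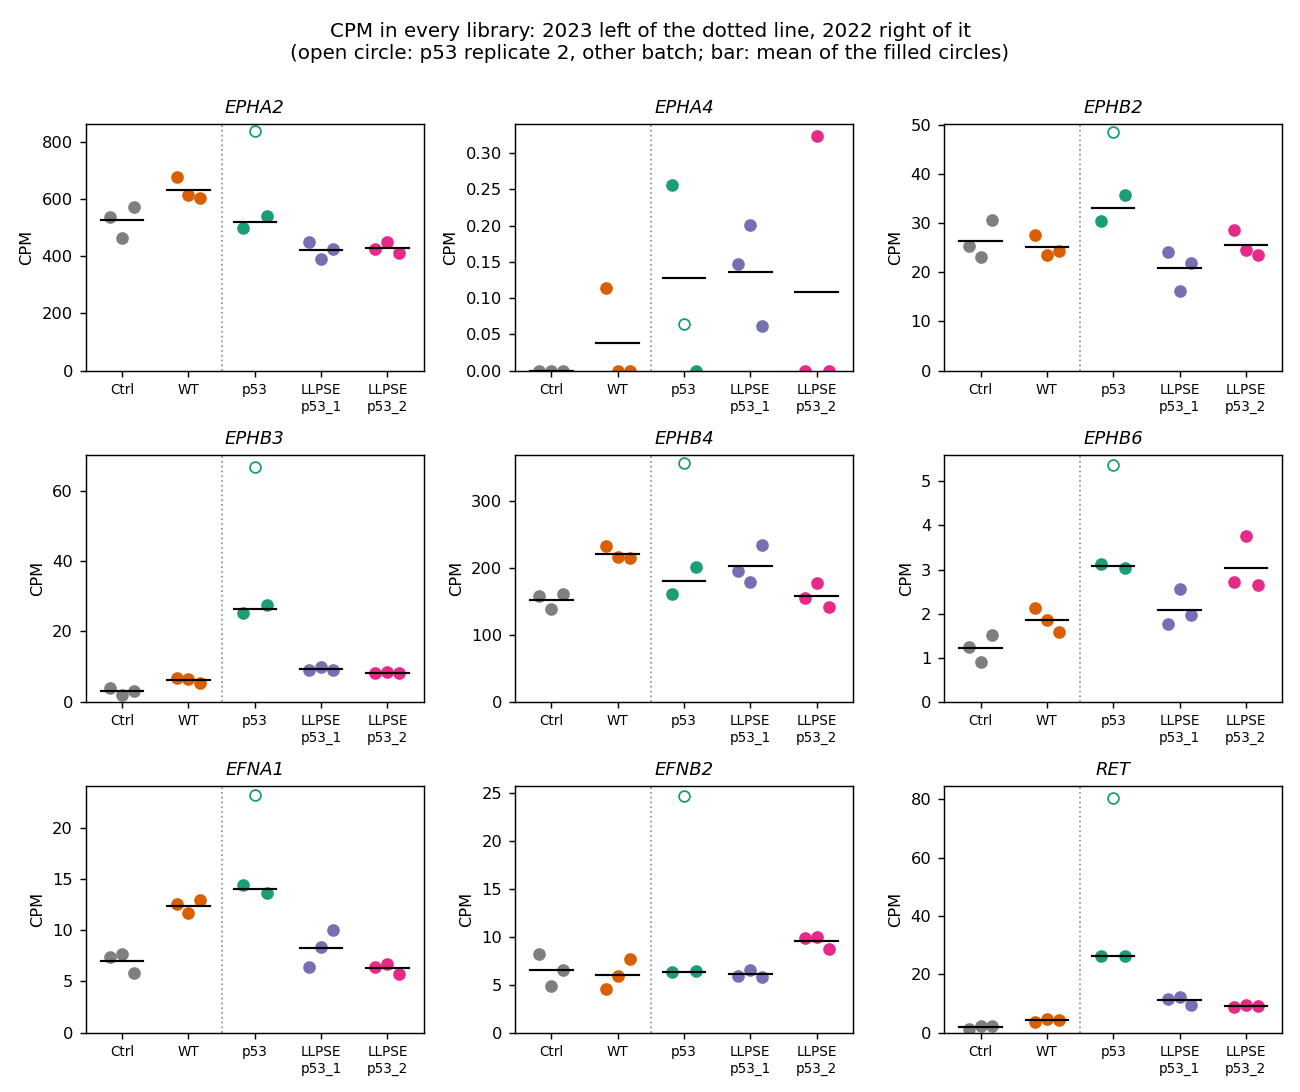
CPM of each of the 9 genes in every library, with 2023 to the left and 2022 to the right of the dotted line; bars are means of the filled points, and the open circle is p53 replicate 2, from another batch. RET, EPHB3, EFNA1 and EPHB4 are higher in all WT than in all Ctrl libraries, and in 2022 RET and EPHB3 are lower in all 6 LLPSEp53 libraries than in all 3 p53 libraries.

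Sequence upstream of the start site is shown for the 4 genes that rose in WT, since p53 acts by binding DNA near or far from its target genes. The stretches come from RefSeq on GRCh38.p14, read 5′ to 3′ on the gene's strand and ending before annotated exon sequence. Capitals mark the closest match to the p53 response element, a pair of 10-base motifs with 0 to 13 bases between them, searched in the 250 bases before the start. The motif is palindromic, so both strands were covered. EPHB3 (chr3:184561535-184561783, + strand) had 5 mismatches of 20 and RET (chr10:43076819-43077026, + strand, the first of its 2 RefSeq starts) had 4. EPHB4 (chr7:100827524-100827773, - strand) had 3 mismatches. For EFNA1 only the matched bases are given (chr1:155127672-155127691, + strand), with 4 mismatches, because a longer annotated transcript covers that window.
EPHB3: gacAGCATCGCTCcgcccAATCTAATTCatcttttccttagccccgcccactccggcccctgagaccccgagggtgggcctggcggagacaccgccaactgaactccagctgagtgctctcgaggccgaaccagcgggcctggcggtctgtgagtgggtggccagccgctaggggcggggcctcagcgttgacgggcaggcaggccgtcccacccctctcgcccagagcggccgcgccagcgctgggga
RET: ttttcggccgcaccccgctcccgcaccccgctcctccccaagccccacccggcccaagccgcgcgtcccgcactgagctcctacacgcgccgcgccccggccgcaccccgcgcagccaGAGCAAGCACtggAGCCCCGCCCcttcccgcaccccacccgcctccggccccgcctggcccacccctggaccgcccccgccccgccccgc
EPHB4: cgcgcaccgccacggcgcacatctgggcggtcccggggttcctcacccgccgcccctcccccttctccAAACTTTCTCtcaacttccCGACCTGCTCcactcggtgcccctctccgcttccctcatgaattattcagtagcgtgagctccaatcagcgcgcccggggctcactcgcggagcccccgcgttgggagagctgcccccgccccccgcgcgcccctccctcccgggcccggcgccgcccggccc
EFNA1: ACACATCTCTGAGCAGATCT
Of 35116 such windows over all genes, 34.1% held a pair with at most 3 mismatches, 79.3% with at most 4 and 98.1% with at most 5. No window of the 9 genes held an exact 10-base motif, which 5.57% of all windows did. The GC box GGGCGG was present on either strand in every window of the 9 genes, and in 42.6% of all windows. The printed windows of EPHB3, RET, EPHB4 and EFNA1 were 70.0% to 79.6% G and C over their 250 bases, against a median of 58.0% over all windows. These matches are descriptions and not binding sites, and sequence outside the windows was not searched.

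The ligand and partner genes around the 9 were taken as whole lists, but these lists were also chosen with earlier results of these data known. The adjusted p-values of list genes, here and below, are therefore given as a description and not as independent tests. Of the 14 other Eph receptor and ephrin genes, 9 were tested in 2023 and 1 passed, where 4.12% of all tested genes did. EFNB1 had 15.8, 17.7 and 18.8 CPM in Ctrl and 62.9, 56.7 and 51.5 CPM in WT, and rose 3.26-fold (log2 1.71 ± 0.12, edgeR adjusted p = 7.8e-09). The other 8 tested in this list had log2 changes from -0.63 to 0.52, none past the threshold. The median log2 change of these 9 tested list genes was -0.16, against -0.01 over all tested genes.

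Of 10 ligand and co-receptor genes of RET, 6 were tested and 2 passed, where 4.12% of all tested genes did. GDNF, the ligand that founded the family, had 5.85, 5.18 and 4.45 CPM in Ctrl and 14.96, 10.04 and 12.3 CPM in WT, and rose 2.41-fold (log2 1.27 ± 0.19, edgeR adjusted p = 1.8e-04). GDF15, an established p53 target and stress hormone that signals through RET in the brainstem, stood at 59.4 ± 15.3 CPM in Ctrl and 166 ± 17.1 in WT, a 2.79-fold rise (edgeR adjusted p = 1.4e-06). Most co-receptors had few counts or none. GFRAL, which GDF15 needs to reach RET, had 0 counts in all 15 libraries. With p53 replicate 2 set aside, GFRA2, GFRA3 and GFRA4 had at most 6. GFRA1, the co-receptor for GDNF, was detected in each of those libraries at 0.782 to 2.68 CPM.

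Of 30 signalling partners of Eph receptors and ephrins, 29 were tested and 2 passed, with a median log2 change of -0.0049. Over all tested genes 4.12% passed, so nothing is read from the counts of the partner lists. YES1, a SRC-family kinase, rose from 59.8 ± 4.23 to 88.2 ± 7.76 CPM (log2 0.56, edgeR adjusted p = 0.00244). RGS3, which links B-type ephrins to G proteins, rose from 84.4 ± 2.36 to 110.1 ± 4.03 CPM (log2 0.38, adjusted p = 0.0314, and 0.0505 to 0.151 without each of 5 single libraries). Of 17 RET adaptors and effectors, 13 were tested and DOK1 fell, from 29.4 ± 3.62 to 19.8 ± 1.24 CPM (log2 -0.57, adjusted p = 0.0103, and 0.152 with GC offsets and 0.0909 without WT replicate 1). The median over that list was -0.11, and 0.873% of all tested genes fell past the threshold.

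The 2022 libraries asked how the LLPSEp53 constructs compare with p53. Both comparisons use the same p53 libraries and so are not independent of each other. RET and EPHB3 were lower in both, and EFNA1 passed the threshold in LLPSEp53_2. In LLPSEp53_1 against p53, 2 of the 8 tested genes fell past the threshold, where 0.836% of 17459 tested genes fell and 0.888% passed in either direction. In LLPSEp53_2 against p53, 3 of 8 fell, where 1.83% of tested genes fell and 1.93% passed in either direction. None of the 8 rose past it, as 0.0515% of all tested genes did in LLPSEp53_1 and 0.103% in LLPSEp53_2. With p53 replicate 2 set aside, 6 of the 8 had groups that did not overlap in each comparison. Over all tested genes this held for 26.9% in LLPSEp53_1 and 33.1% in LLPSEp53_2. In LLPSEp53_1 all 6 were lower, as were 14.7% of all tested genes. In LLPSEp53_2, 5 were lower, as were 17.5% of all tested genes.

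RET had 26.2, 80.6 and 26.3 CPM in p53 replicates 1, 2 and 3. It had 11.6, 12.2 and 9.29 CPM in LLPSEp53_1 and 8.94, 9.59 and 9.18 CPM in LLPSEp53_2. Every LLPSEp53 library was below every p53 library, the one from the other batch included. The log2 change was -1.25 ± 0.16 (2.38-fold lower) for LLPSEp53_1 and -1.51 ± 0.16 (2.84-fold lower) for LLPSEp53_2.

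EPHB3 had 25.3, 66.8 and 27.4 CPM in p53, 8.86, 9.85 and 8.92 CPM in LLPSEp53_1 and 8.01, 8.55 and 8.17 CPM in LLPSEp53_2. The separation was again complete, and the 3 libraries of each construct were closely grouped. The log2 change was -1.51 ± 0.15 (2.86-fold lower) for LLPSEp53_1 and -1.67 ± 0.15 (3.19-fold lower) for LLPSEp53_2. As a share of the summed Eph receptor level per kb, EPHB3 fell from 3.53% ± 0.0596 in p53 (n = 2) to 1.47% ± 0.199 and 1.35% ± 0.0504 (SD, n = 3 each). Without p53 replicate 3, which leaves a single p53 library, neither EPHB3 nor RET passed the threshold for LLPSEp53_1, with log2 changes of -1.46 and -1.25; 0 of all genes then passed.

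EFNA1 had 14.4, 23.2 and 13.6 CPM in p53, 6.37, 8.38 and 10.03 CPM in LLPSEp53_1 and 6.41, 6.74 and 5.72 CPM in LLPSEp53_2. All LLPSEp53 libraries were below all p53 libraries, but the LLPSEp53_1 libraries were spread out. Its log2 change was -0.76 ± 0.20 for LLPSEp53_1, not past the threshold, and -1.16 ± 0.20 (2.23-fold lower) for LLPSEp53_2, past it. The LLPSEp53_2 call was lost without p53 replicate 1 or 3 or LLPSEp53_2 replicate 3; for LLPSEp53_1 it passed without replicate 3 and with GC offsets.

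**Figure D3:**
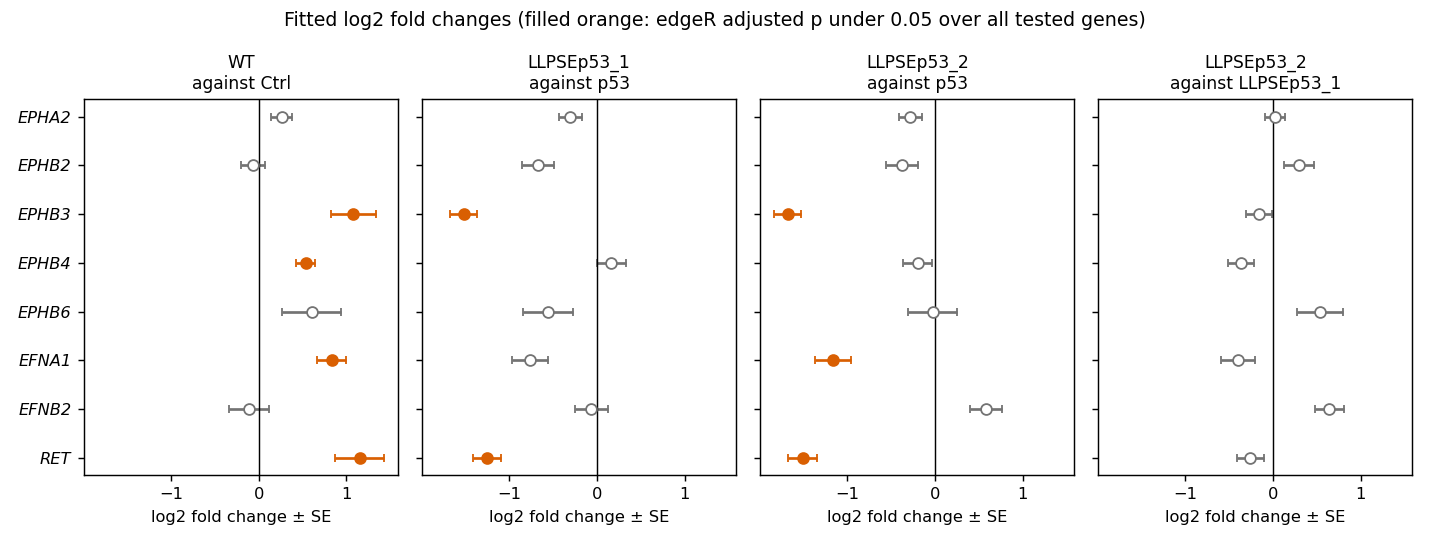
Fitted log2 fold change with its standard error for the 8 tested genes in each of 4 comparisons; filled orange points are past the edgeR threshold over all tested genes. EPHB3 and RET lie above 1 in WT against Ctrl and below -1 against p53 for both LLPSEp53 constructs, while no gene is filled between the constructs.

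The 2 most abundant receptors did not pass the threshold in either construct. EPHA2 had 499, 839.7 and 541 CPM in p53, 449, 392 and 424 CPM in LLPSEp53_1 and 426, 449 and 412 CPM in LLPSEp53_2. Each LLPSEp53 library was lower than each p53 library, but the log2 changes of -0.30 ± 0.13 and -0.28 ± 0.13 did not pass. EPHB4 had 160.3, 357 and 201 CPM in p53, 195, 179 and 234 CPM in LLPSEp53_1 and 155, 177 and 142 CPM in LLPSEp53_2. These overlapped once p53 replicate 2 was set aside, with log2 changes of 0.17 ± 0.17 and -0.19 ± 0.16, and with that replicate counted as an ordinary one the first was -0.24.

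EPHB2 had 30.5, 48.6 and 35.7 CPM in p53, 24.2, 16.3 and 21.9 CPM in LLPSEp53_1 and 28.5, 24.6 and 23.5 CPM in LLPSEp53_2. All LLPSEp53 libraries lay below the p53 libraries, by log2 changes of -0.67 ± 0.18 and -0.37 ± 0.18 that did not pass. Against p53 replicates 1 and 3, 14.7% and 17.5% of all tested genes were separated in that direction. For LLPSEp53_1 the gene passed without replicate 1 and when the filter on low counts was dropped. EPHB6 had 3.13, 5.37 and 3.04 CPM in p53, 1.76, 2.55 and 1.97 CPM in LLPSEp53_1 and 2.71, 3.76 and 2.64 CPM in LLPSEp53_2. The LLPSEp53_1 libraries were the lower ones (log2 -0.56 ± 0.29) and those of LLPSEp53_2 straddled the p53 values (log2 -0.02 ± 0.28), neither past the threshold.

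EFNB2 differed in sign between the constructs. It had 6.33, 24.7 and 6.39 CPM in p53, 5.93, 6.57 and 5.79 CPM in LLPSEp53_1 and 9.86, 9.97 and 8.74 CPM in LLPSEp53_2. The LLPSEp53_2 libraries stood above p53 replicates 1 and 3 and far below replicate 2. Its log2 change in LLPSEp53_2 was 0.58 ± 0.18, not past the threshold, and -0.39 with p53 replicate 2 counted as an ordinary replicate; in LLPSEp53_1 it was -0.06 ± 0.18. EPHA4 had 4, 1 and 0 counts in p53, 2, 3 and 1 in LLPSEp53_1 and 0, 5 and 0 in LLPSEp53_2, at or near the limit of detection.

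All 8 tested genes were higher in p53 replicate 2 than in the mean of the other 2 p53 libraries, from 1.47-fold for EPHB2 to 2.54-fold for EPHB3, 3.07-fold for RET and 3.88-fold for EFNB2. Of all tested genes, 11.5% were at least 2-fold higher in that library, and the median ratio was 1.02. A ratio at or above that of EPHB2 was found for 24.6% of all tested genes. For EPHB3, RET and EFNB2 this share was 6.15%, 3.69% and 1.96%. It is the only library of its batch, so the batch and this library cannot be told apart.

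Between the constructs, 0 of the 8 tested genes passed the threshold by edgeR or by DESeq2, and 0.372% of all genes passed by edgeR. An unadjusted p under 0.05 counted 1 of the 8 as higher in LLPSEp53_2 (EFNB2, log2 0.64 ± 0.16) and 1 as lower (EPHB4, log2 -0.36 ± 0.15), against 2.73% and 4.5% of all tested genes; nothing is read from that count. The log2 differences of RET and EPHB3 were -0.26 ± 0.15 and -0.16 ± 0.14. These values do not show that the constructs act alike on the genes. The established p53 target CDKN1A, in contrast, stood at 424 ± 26.1 CPM in LLPSEp53_1 and 261 ± 25.7 in LLPSEp53_2 (SD, n = 3 each, edgeR adjusted p = 0.0302). In p53 it stood at 285 ± 1.46 (SD, n = 2). Its log2 change of 0.57 in LLPSEp53_1 against p53 was not past the threshold by edgeR, while DESeq2 called it higher.

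Among the ligands, GDNF showed values in 2022 that ran beside those of RET. It had 26.6, 55.3 and 26.6 CPM in p53, 15.4, 14.5 and 10.8 CPM in LLPSEp53_1 and 6.90, 9.97 and 9.06 CPM in LLPSEp53_2. Every LLPSEp53 library was below every p53 library, by 3.08-fold in LLPSEp53_2 (log2 -1.62 ± 0.20, edgeR adjusted p = 0.00116). For LLPSEp53_1 it was 1.96-fold lower (log2 -0.97 ± 0.19, adjusted p = 0.0374), a call lost under 8 of 17 other settings, where adjusted p reached 0.25. EFNA2, an A-type ephrin, fell from 6.84 ± 2.44 CPM in p53 (n = 2) to 2.24 ± 0.530 in LLPSEp53_2 (SD, n = 3; log2 -1.61, adjusted p = 0.0162, and 0.0583 to 0.222 without each of 3 single libraries, p53 replicate 3 giving the highest). EFNB1 and GDF15, which rose with WT in 2023, did not pass in either construct, with log2 changes of -0.35 and -0.22 for EFNB1 and 0.23 and -0.22 for GDF15. The adjusted p-values of GDNF and EFNA2 are likewise a description, because their lists were chosen with earlier results known.

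**Figure D4:**
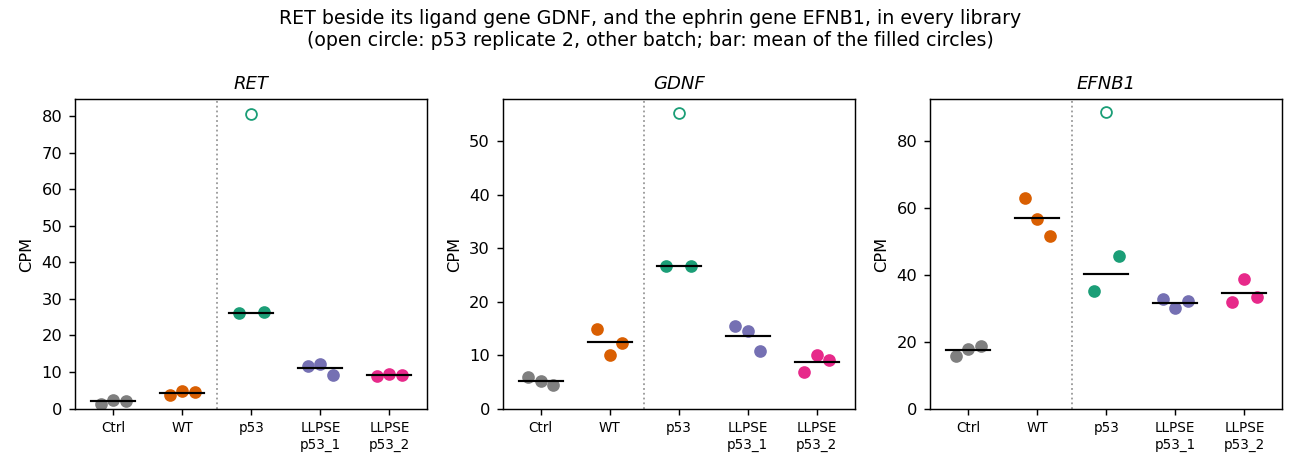
CPM of RET, its ligand gene GDNF and the ephrin gene EFNB1 in every library, with the 2 years separated by a dotted line; bars are means of the filled points, and the open circle is p53 replicate 2. RET and GDNF are lower in all 6 LLPSEp53 libraries than in all p53 libraries. EFNB1 is lower in all LLPSEp53_1 libraries than in all p53 libraries, but overlaps between p53 and LLPSEp53_2. It is 3.26-fold higher in WT than in Ctrl.

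The remaining partners showed no further call in 2022. For LLPSEp53_1, 0 of 9 tested Eph and ephrin genes, 0 of 29 Eph partners and 0 of 13 RET adaptors passed with edgeR or with DESeq2, with 2, 3 and 3 of them at an unadjusted p under 0.05. By that rule 5.72% of all tested genes were higher and 7.34% lower. Medians of the 3 lists were -0.35, -0.15 and -0.27, against -0.0001 over all tested genes. For LLPSEp53_2, EFNA2 was the only call in the 3 lists with either tool, and their medians were -0.07, -0.04 and -0.12, against 0.01 over all tested genes. By edgeR, 0.888% of all tested genes passed for LLPSEp53_1 and 1.93% for LLPSEp53_2.

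The genes most like each of the 8 were those with the highest Pearson correlation of log2 CPM over the 15 libraries, among about 11555 expressed genes. For this step 1 was added to each raw count before scaling, and each year was centred on its own mean. RET was closest to BCL2L11, which encodes the pro-apoptotic protein BIM (r = 0.971), followed by ZCCHC24 and SEMA4D (both r = 0.959). EPHB3 was closest to the transcription factor gene TBX2 (r = 0.971), and was also close to SS18L1 (0.964). EPHB4 was closest to RRAD (0.960) and PIDD1 (0.958), and EFNA1 to PMEPA1 (0.959). EPHA2 was closest to CEP170B (0.966), EPHB2 to TRIM8 (0.938), EFNB2 to INPP5B (0.928) and EPHB6 to GOLGA7B (0.909). All share the same libraries, and p53 replicate 2 weighs on them: without it, r was 0.946 for RET with BCL2L11, 0.9496 for EPHB3 with TBX2 and 0.783 for EFNB2 with INPP5B.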

How the data were processed

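RNA from 15 samples of H1299 cells was sequenced. The deposited files hold raw counts per gene, 1 library each, which the authors did not normalise, judged from the values. Trimmomatic 0.39, STAR 2.7.10a and GRCh38 are named per the submitters' processing notes; for the counting tool, annotation and strand setting, the answer is not given in the sources used here. Groups came from titles; the column names of the LLPSEp53_1 files carry no construct number. Nothing says replicates were separate cultures, so errors measure the spread between libraries, which may be technical; no pair within a group was as close as sampling noise allows (chi-square divided by its degrees of freedom, 6.76 to 112). Bulk counts cannot tell fewer expressing cells from less RNA per cell.

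Counts were fitted in R 4.3.3 with edgeR 4.0.16 (TMM, filterByExpr, glmQLFit, glmQLFTest, Benjamini-Hochberg, threshold 0.05): 6 libraries of 2023 (16156 genes), and 9 of 2022 (17459 genes) with a term for the batch of p53 replicate 2. Years were fitted apart and levels are not compared between them. Positions and exon lengths are from GENCODE 29.  Alternatives were RLE and upper-quartile scaling, no filter, DESeq2 1.42.0, a replicate block, no batch term, fits of 2 groups, each library left out, and GC offsets (added after the data were seen). The code was tested on simulated data. The 9 genes and all lists were chosen with earlier results of these data known. Other genes named are the family, ligand and co-receptor lists, the called genes of both partner lists and the genes most like each of the 8 tested by correlation. DOK2, DOK5, GRB7, GRB10 and ARHGEF15 were not tested, being too low. RefSeq promoters of GRCh38.p14 were found for all 9 genes. Some genes these rules name are not reported here.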

Additional observations from a re-analysis of the deposited data

How the results depend on the processing

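The number of the 9 genes past the threshold was 4, 2, 3 and 0 (WT against Ctrl, LLPSEp53_1 and LLPSEp53_2 against p53, and between constructs). With the replicate block it was again 4, 2, 3 and 0, and GDNF in LLPSEp53_1 lost its call (edgeR adjusted p = 0.107). Same-number correlations in 2023 were 0.20, 0.42 and 0.03. There, WT replicates 1 and 2 were closest to the Ctrl library of their number, and WT replicate 3 to Ctrl replicate 1. These values do not settle whether the numbers pair the libraries of 2023. In 2022, same-number correlations between the 2 constructs were -0.67, -0.25 and -0.68. Leaving out each library in turn gave 2 to 4, 0 to 3, 2 to 3 and 0; the lowest values came without Ctrl replicate 3 (2) and without p53 replicate 3 (0), when 0 of all genes were called in LLPSEp53_1. GC offsets gave 5 in WT against Ctrl and 3 in LLPSEp53_1. Of 504 alternative values of the log2 changes of the 8 tested genes, 477 kept direction and side of the threshold, 11 lost the call, 5 gained one and 11 turned sign. Genes not past the threshold in the main fit count as kept if they stayed so. The 11 lost calls could come only from the 4, 2 and 3 that were past it. GC offsets turned EPHB2 in WT to 0.069 and EPHA2 between constructs to -0.022. Counting p53 replicate 2 as an ordinary replicate turned EPHB4 in LLPSEp53_1 to -0.24 and EFNB2 in LLPSEp53_2 to -0.39. With single libraries left out, the log2 change ran from -0.15 to 0.065 for EPHB2 and from -0.32 to 0.085 for EFNB2 in WT, from -0.028 to 0.071 for EPHA2 between constructs, from -0.20 to 0.068 for EPHB6 in LLPSEp53_2, and from -0.035 to 0.37 for GDF15 in LLPSEp53_1. None of the values with turned sign passed the threshold, and the cause of the changes was not tested. Over all genes, calls in WT against Ctrl went from 665 to 937 without the filter, 1645 with the block and 557 with GC offsets, and ranged from 356 (without WT replicate 1) to 1381 (without Ctrl replicate 2) with single libraries left out. Those in LLPSEp53_1 against p53 ranged from 0 (without p53 replicate 3) to 568 (without LLPSEp53_1 replicate 1) around 155, and those in LLPSEp53_2 against p53 from 93 (without p53 replicate 3) to 928 (without LLPSEp53_1 replicate 3) around 337, or 1040 in a fit of only those 2 groups. The shares of all genes given beside the counts move with these. In 2022, p53 was represented by 2 libraries, which limits the precision of every difference from it.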
